A study of Mus musculus with 12 samples.

Results

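The osteoclast-regulating factors described here are 5 genes. They are Tnfsf11, which encodes RANKL, Tnfrsf11a, which encodes its receptor RANK, Tnfrsf11b, which encodes the decoy receptor osteoprotegerin (OPG), and Csf1 and Il34, which encode M-CSF and IL-34, the ligands of the CSF1 receptor. The genes were chosen by name, and all 5 were found among the 49585 gene identifiers of the count tables. RNA-seq libraries were made from 4 populations sorted from bones of wild-type male C57BL/6 mice aged 8 to 10 weeks at steady state, with 2000 cells per library and 3 libraries per population. All populations were negative for CD45, Ter119 and CD31. Itga8+ MSCs (Itga8+Alcam+Sca-1-) and Itga8- BLCs (Itga8-Alcam+Sca-1-) were the Alcam+ bone-lining cells with and without integrin alpha 8, and the sample labels call the latter osteoblasts. Sca-1+ MSCs were Alcam-Sca-1+ cells, and CD51+CD140a+ MSCs were stromal cells of the marrow. The first 3 populations were released from bone fragments with collagenase after the marrow had been flushed out. CD51+CD140a+ MSCs were released from the flushed marrow with Accumax, so the population and its dissociation cannot be told apart in any comparison with them. The labels do not say whether the libraries of a population came from separate mice, so the p-values measure the spread between these libraries, which may be technical.

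Osteoclasts, the cells that resorb bone, form from myeloid precursors that need M-CSF to survive and RANKL to differentiate. RANKL on stromal and osteogenic cells binds RANK on the precursor, and OPG secreted by the same kinds of cell binds RANKL and keeps it from RANK, so the balance of RANKL and OPG is widely used as a measure of how far a stroma can promote resorption. IL-34 acts through the same receptor as M-CSF. Marrow stromal cells that express the leptin receptor are known as a source of RANKL and M-CSF.

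The libraries held 17580677 to 31332475 counts on genes, and the CD51+CD140a+ libraries were the deepest. The labels were checked against marker genes. The summed level of 11 markers of LepR+ marrow stroma, such as Cxcl12, Lepr and Adipoq, was 45903 to 53557 TPM (read counts divided by exon length and scaled to a fixed library total) in CD51+CD140a+ MSCs and 430 to 735 TPM in the other libraries, and the summed level of 10 osteoblast markers was 66618 to 74068 TPM in Itga8- BLCs and 3979 to 39292 TPM elsewhere. Itga8+ replicate 2 and Itga8- replicate 3 stood apart. Mitochondrial genes took 0.546% and 0.359% of their counts, against 0.0570% to 0.0996% elsewhere. Their cartilage markers summed to 4748 and 5020 TPM, against 20369 to 54975 TPM in the other Itga8+ and Itga8- libraries. Itga8+ replicate 2 also had the most RNA of blood cells, with myeloid markers at 43869 TPM (15095 and 6380 TPM in Itga8+ replicates 1 and 3), erythroid markers at 4961 TPM (589 and 544 TPM) and lymphoid markers at 625 TPM (239.9 and 83.5 TPM). Each value below is in CPM (read counts scaled to library size by the TMM method) unless it is given per length as TPM, which alone is used to compare genes with each other. In bulk samples fewer cells of a type and less RNA per cell cannot be told apart.

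CD51+CD140a+ MSCs had the highest Tnfsf11, Csf1 and Il34 and the lowest Tnfrsf11b of the 4 populations, and Tnfrsf11a was at or near 0 throughout. A gene was called where edgeR's quasi-likelihood test over 18648 genes gave a Benjamini-Hochberg adjusted p (FDR) under 0.1 and a fold change above 2. Tnfrsf11a did not pass the filter on low counts, and the other 4 genes were tested. All 4 were called between CD51+CD140a+ MSCs and Itga8+ MSCs, where 35.6% of all genes tested were called. The same number was called against Itga8- BLCs, with 35.3% of all genes, and against Sca-1+ MSCs, with 20.5% of all genes. In each of these comparisons 3 of the 4 genes were higher in CD51+CD140a+ MSCs, a direction taken by 14.3%, 14.9% and 9.3% of all genes against Itga8+, Itga8- and Sca-1+ cells, and Tnfrsf11b was lower there, as were 21.2%, 20.4% and 11.2% of all genes. Each of the 4 genes had library values without overlap in these comparisons, which held for 44.4%, 49.8% and 45.9% of all genes in the same order. Between the bone-lining populations 1 of the 4 genes, Il34, was called, being higher in Itga8+ MSCs than in Itga8- BLCs, where 3.82% of all genes were called, 1.66% as higher in Itga8+ MSCs and 2.16% as higher in Itga8- BLCs. These shares moved by over 1.5 times with the fit, from 310 genes higher and 402 lower in Itga8+ MSCs to 107 and 169 in a fit of these populations alone and 197 and 236 without Itga8- replicate 3. Csf1 alone was called between Itga8+ MSCs and Sca-1+ MSCs, with 21.7% of all genes, and was higher in Sca-1+ MSCs, as were 8.89% of all genes, against 12.9% in the other direction. Csf1 and Il34 were called between Itga8- BLCs and Sca-1+ MSCs, with 26.4% of all genes, and both were higher in Sca-1+ MSCs, as were 11.9% of all genes, against 14.5% in the other direction. Each population enters 3 of these 6 comparisons, which therefore share libraries and are not independent of each other.

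**Figure D1:**
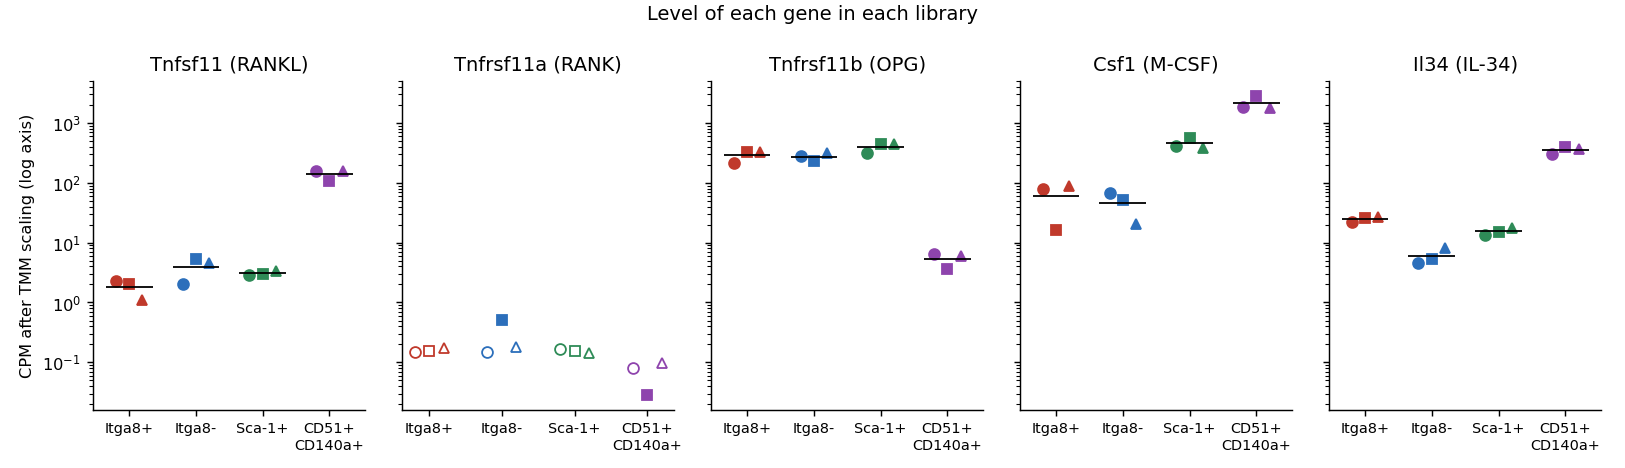
CPM after TMM scaling (log axis) of the 5 genes in each library of the 4 populations. Circles, squares and triangles are replicates 1, 2 and 3, the bars are means, and open symbols for Tnfrsf11a mark libraries with 0 counts, drawn at the level of 3 counts. The 3 CD51+CD140a+ libraries lie above all others for Tnfsf11, Csf1 and Il34 and below all others for Tnfrsf11b.

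Tnfsf11 (ENSMUSG00000022015), the ligand that drives osteoclast differentiation, lies on the minus strand of GRCm38 at chr14:78277445-78308043, with 1 annotated transcript of 5 exons and 2236 bases. The 250 bases before the start sites of Tnfsf11 and Csf1 in RefSeq (GRCm38.p6) are shown because both genes were highest in CD51+CD140a+ MSCs. The Tnfsf11 sequence is chr14:78308044-78308293 and the Csf1 sequence is chr3:107760470-107760719, both on the minus strand and written 5′ to 3′ towards the start.
Tnfsf11: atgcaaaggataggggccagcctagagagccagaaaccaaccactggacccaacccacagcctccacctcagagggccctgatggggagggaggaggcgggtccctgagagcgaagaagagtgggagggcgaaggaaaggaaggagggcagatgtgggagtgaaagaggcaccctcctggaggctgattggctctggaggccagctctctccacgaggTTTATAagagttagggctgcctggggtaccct
Csf1: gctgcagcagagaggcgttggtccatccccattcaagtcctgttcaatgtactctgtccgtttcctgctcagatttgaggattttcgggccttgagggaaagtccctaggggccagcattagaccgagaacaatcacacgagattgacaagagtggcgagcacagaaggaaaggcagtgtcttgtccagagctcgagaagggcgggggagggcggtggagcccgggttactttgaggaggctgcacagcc
The capitals mark the match to TATAAA, the TATA box, read on the opposite strand, and TATAAA on either strand was found in 12.4% of 32851 promoter windows of this length. Its first base lies 32 bases before the start. Neither window held TGANTCA (AP-1, in 6.75% of windows), TGACGTCA (CRE, 1.55%) or TGTGGT (RUNX, 14.0%). CANNTG (E-box, 66.2%) matched 1 time in Tnfsf11 and not in Csf1. A loose NF-kB frame (3 G, then any 5 bases, then 2 C, in 45.8% of windows) matched 2 times in Tnfsf11 and 4 times in Csf1, with overlapping matches counted apart. All motifs were read on both strands. These matches describe letters and not binding. Tnfrsf11a also had an entry in the promoter table.

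In CD51+CD140a+ MSCs, Tnfsf11 stood at 156, 107 and 156 CPM in replicates 1, 2 and 3. It stood at 2.28, 2.03 and 1.10 CPM in Itga8+ MSCs. The values were 2.04, 5.24 and 4.50 CPM in Itga8- BLCs, and 2.88, 3.00 and 3.42 CPM in Sca-1+ MSCs. Every CD51+CD140a+ library thus lay above all 9 others, and the remaining 3 populations lay within a narrow low range that rested on 19 to 113 counts per library. The mean of 139.6 ± 27.9 CPM (SD, n = 3) in CD51+CD140a+ MSCs was 77.6 times the 1.80 ± 0.621 CPM of Itga8+ MSCs, 35.6 times the 3.93 ± 1.67 CPM of Itga8- BLCs and 45.0 times the 3.10 ± 0.285 CPM of Sca-1+ MSCs. On the log2 scale the fitted differences from CD51+CD140a+ MSCs were -6.27 (SE 0.463, edgeR FDR 3.16e-06) for Itga8+ MSCs, -5.15 (SE 0.437, FDR 7.95e-06) for Itga8- BLCs and -5.49 (SE 0.444, FDR 5.72e-06) for Sca-1+ MSCs.

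Among the 3 populations from bone fragments Tnfsf11 was not called in any comparison. It was 1.12 lower on the log2 scale in Itga8+ MSCs than in Itga8- BLCs by the fit (a difference of -1.12, SE 0.388, edgeR FDR 0.216), and the libraries overlapped. Without Itga8- replicate 1 this difference was -1.42 and passed the test (FDR 0.0836). Itga8+ MSCs lay below Sca-1+ MSCs in every library, but the difference of -0.78 (SE 0.387, FDR 0.185) did not pass. Libraries of these populations did not overlap for 37.6% of all genes tested. Itga8- BLCs and Sca-1+ MSCs differed by 0.34 (SE 0.379, FDR 0.552), and their libraries overlapped. The order of the means was therefore CD51+CD140a+ MSCs, Itga8- BLCs, Sca-1+ MSCs and Itga8+ MSCs, and only the step below CD51+CD140a+ MSCs was called.

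Tnfrsf11b (ENSMUSG00000063727, minus strand, chr15:54250619-54278484, 2818 exon bases) encodes OPG, the soluble decoy receptor that neutralises RANKL. Its pattern ran the other way. Itga8+ MSCs held 218, 322 and 329 CPM, Itga8- BLCs 282, 233 and 310.0 CPM, and Sca-1+ MSCs 312, 442 and 449 CPM. In CD51+CD140a+ MSCs it stood at 6.53, 3.67 and 6.09 CPM. All 9 libraries from bone fragments were above every CD51+CD140a+ library. The mean in CD51+CD140a+ MSCs was 5.43 ± 1.54 CPM (SD, n = 3), and the means of 289 ± 62.2, 275 ± 39.2 and 401 ± 77.3 CPM in Itga8+ MSCs, Itga8- BLCs and Sca-1+ MSCs were 53.3, 50.6 and 73.9 times as high. The fitted log2 differences over CD51+CD140a+ MSCs were 5.73 (SE 0.362, edgeR FDR 1.22e-06), 5.66 (SE 0.361, FDR 1.20e-06) and 6.21 (SE 0.370, FDR 1.17e-06) in the same order. Per length, Tnfrsf11b reached 528 ± 93.5 TPM in Sca-1+ MSCs.

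The Tnfrsf11b levels of Itga8+ MSCs and Itga8- BLCs were separated by 0.075 on the log2 scale (SE 0.295, edgeR FDR 0.976) with overlapping libraries, and the sign of this small difference turned when Itga8+ replicate 3 (-0.031) or Itga8- replicate 2 (-0.025) was left out. Sca-1+ MSCs had the highest mean. Their difference was not called from Itga8+ MSCs (log2 -0.47 for Itga8+ over Sca-1+, SE 0.295, FDR 0.281) or from Itga8- BLCs (-0.55 for Itga8- over Sca-1+, SE 0.295, FDR 0.209), although no Itga8- library reached the lowest Sca-1+ library. Itga8- and Sca-1+ libraries did not overlap for 45.7% of all genes tested.

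RANKL and OPG messages were set against each other within each library, as the log2 of Tnfsf11 over Tnfrsf11b reads per exon base with 0.5 added to each count. The ratio does not depend on library size, and it compares messages, since no protein was measured in these libraries. In CD51+CD140a+ MSCs there were 30.0, 36.7 and 32.1 Tnfsf11 reads for each Tnfrsf11b read per length. In Itga8+ MSCs the relation was inverse, with 75.1, 124 and 232 Tnfrsf11b reads for each Tnfsf11 read. Itga8- BLCs had 108, 35.1 and 54.3, and Sca-1+ MSCs had 85.3, 116 and 104. RANKL message thus exceeded OPG message only in the CD51+CD140a+ libraries among these 12, and OPG message exceeded RANKL message in all 9 others. The mean log2 ratio was 5.04 ± 0.148 in CD51+CD140a+ MSCs, -7.02 ± 0.814 in Itga8+ MSCs, -5.88 ± 0.820 in Itga8- BLCs and -6.66 ± 0.225 in Sca-1+ MSCs (SD, n = 3 each). Relative to CD51+CD140a+ MSCs the ratio was lower by a factor of 4249 in Itga8+ MSCs (log2 difference -12.05, SE 0.478), 1941 in Itga8- BLCs (-10.92, SE 0.481) and 3311 in Sca-1+ MSCs (-11.69, SE 0.155). Each of these gave p = 0.1 in a two-sided exact permutation test, the smallest that 3 libraries against 3 allow.

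The ratios of the 3 populations from bone fragments overlapped. Itga8+ MSCs were below Itga8- BLCs by 1.13 on the log2 scale (a difference of -1.13, SE 0.667, exact permutation p = 0.2) and below Sca-1+ MSCs (-0.36, SE 0.487, exact p = 0.6), and Itga8- BLCs were above Sca-1+ MSCs (0.77, SE 0.491, exact p = 0.3). The difference of Itga8+ from Sca-1+ MSCs turned to 0.060 without Itga8+ replicate 3, which had the fewest Tnfsf11 counts, 19.

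**Figure D2:**
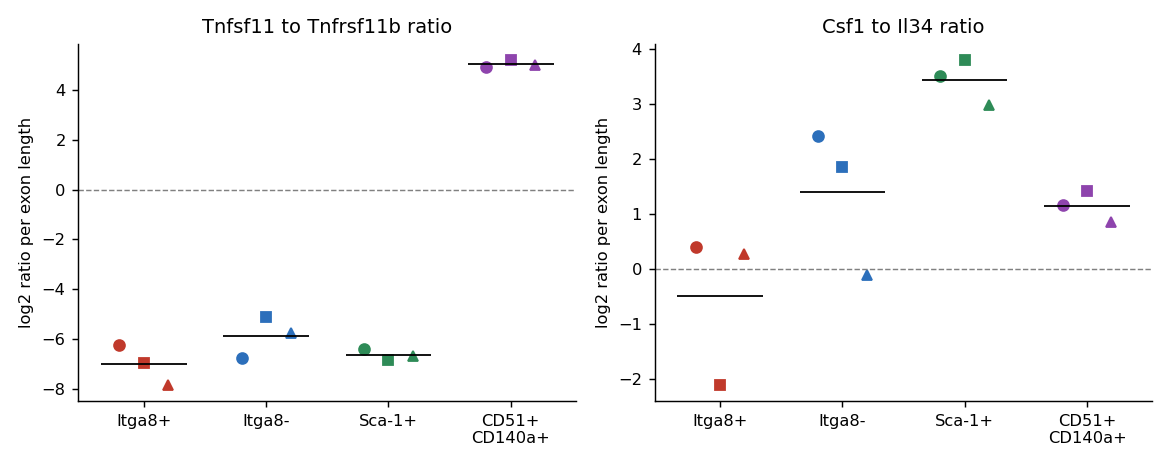
Log2 ratio per exon length of Tnfsf11 to Tnfrsf11b (left) and of Csf1 to Il34 (right) in each library of the 4 populations, with bars for the means and a dashed line at equal levels. Circles, squares and triangles are replicates 1, 2 and 3. The Tnfsf11 to Tnfrsf11b ratio is above the line in the 3 CD51+CD140a+ libraries and below it in the other 9, and the Csf1 to Il34 ratio is lowest in Itga8+ replicate 2.

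Tnfrsf11a (ENSMUSG00000026321, plus strand, chr1:105780718-105847981), the signalling receptor carried by osteoclast precursors, had 0 counts in all 3 Itga8+ libraries and all 3 Sca-1+ libraries. It had 0, 11 and 0 counts in Itga8- BLCs and 0, 1 and 0 in CD51+CD140a+ MSCs. The 11 counts of Itga8- replicate 2 were 0.510 CPM after TMM scaling. The filter used counts per library total without TMM, on which scale the gene stayed below the minimum of 0.5 in every library, and it was not tested. A count of 0 allows up to 3 counts, or 0.0819 to 0.180 CPM in these libraries, which covers counting error only. The detection of RANK message in Itga8- BLCs rested on that library alone. In it, osteoclast markers summed to 1054 TPM, against 1159 and 1543 TPM in replicates 1 and 3, and myeloid markers to 14648 TPM, against 17231 and 12291 TPM. The osteoclast sum includes Car2 and Ctsk, abundant genes that other cells also make. Between 8 and 11 of the 12 osteoclast markers had over 3 counts in the Itga8- libraries, against at most 9 in any library of the other populations. The part of osteoclast and myeloid cells in the 11 counts was not tested.

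Csf1 (ENSMUSG00000014599, minus strand, chr3:107741048-107760469, 5281 exon bases in 7 transcripts) encodes M-CSF, which keeps monocytes, macrophages and osteoclast precursors alive. It was the most abundant of the 5 genes in CD51+CD140a+ MSCs, at 1620 ± 407 TPM (SD, n = 3). Its values there were 1818, 2830.0 and 1769 CPM. In Sca-1+ MSCs they were 419, 562 and 384 CPM. Csf1 thus stood on a middle level in Sca-1+ MSCs, below every CD51+CD140a+ library and above every library of the bone-lining populations. Of all genes tested, 45.9% did not overlap between Sca-1+ and CD51+CD140a+ libraries. The share was 37.6% between Sca-1+ and Itga8+ libraries and 45.7% between Sca-1+ and Itga8- libraries. Itga8+ MSCs held 77.4, 16.0 and 87.0 CPM and Itga8- BLCs 67.2, 52.3 and 20.4 CPM. The lowest value of each came from the library that stood apart, Itga8+ replicate 2 and Itga8- replicate 3. The part of the blood cell RNA of Itga8+ replicate 2 in its low Csf1 was not tested.

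On the log2 scale Csf1 in Itga8+ MSCs was below that in CD51+CD140a+ MSCs (-5.15, SE 0.658, edgeR FDR 0.000143) and that in Sca-1+ MSCs (-2.92, SE 0.593, FDR 0.00676). It was lower in Itga8- BLCs than in CD51+CD140a+ MSCs (-5.52, SE 0.669, FDR 9.57e-05) and than in Sca-1+ MSCs (-3.29, SE 0.603, FDR 0.00285). Sca-1+ MSCs in turn were below CD51+CD140a+ MSCs (-2.23, SE 0.577, FDR 0.0180), with means of 455 ± 94.0 and 2139 ± 599 CPM, a factor of 4.70. The difference between Itga8+ MSCs (60.1 ± 38.5 CPM) and Itga8- BLCs (46.6 ± 23.9 CPM) was not called (0.37, SE 0.553, FDR 0.904). All 5 calls stood without Itga8+ replicate 2 and Itga8- replicate 3, where the differences from CD51+CD140a+ MSCs were -4.67 for Itga8+ MSCs and -5.16 for Itga8- BLCs and those from Sca-1+ MSCs were -2.44 and -2.92.

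Il34 (ENSMUSG00000031750, minus strand, chr8:110741829-110805924, 1959 exon bases) encodes the other ligand of the CSF1 receptor. A share of 4.95% of its exon bases lies opposite the genes Gm15894 and Gm15895, and whether the counting used strand is not given in the sources used here. Il34 stood at 301, 394 and 361 CPM in CD51+CD140a+ MSCs. It stood at 21.9, 25.9 and 26.8 CPM in Itga8+ MSCs, above all libraries of Sca-1+ MSCs (13.6, 15.0 and 17.9 CPM). Itga8- BLCs were lowest, with 4.63, 5.33 and 8.15 CPM. Libraries of different populations did not overlap, so they followed the order CD51+CD140a+ MSCs, Itga8+ MSCs, Sca-1+ MSCs, Itga8- BLCs. Libraries that did not overlap were found for 14.2% of all genes tested between the bone-lining populations and for 37.6% between Itga8+ and Sca-1+ MSCs. Between Itga8- BLCs and Sca-1+ MSCs the share was 45.7%.

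Il34 was the only gene of the 5 to separate the bone-lining populations by the test. The mean of 24.8 ± 2.57 CPM (SD, n = 3) in Itga8+ MSCs was 4.11 times the 6.04 ± 1.86 CPM in Itga8- BLCs (log2 2.04, SE 0.283, edgeR FDR 0.00218). The FDR ranged up to 0.0846 over the alternatives, in a fit of these populations alone. Itga8- BLCs were also below Sca-1+ MSCs (-1.36, SE 0.278, FDR 0.00532). The step from Sca-1+ MSCs (15.5 ± 2.22 CPM) up to Itga8+ MSCs was 0.68 (SE 0.272, FDR 0.107) and was not called. All were below the 352 ± 47.4 CPM of CD51+CD140a+ MSCs, by log2 differences of -3.83 in Itga8+ MSCs (SE 0.301, FDR 4.57e-06), -5.87 in Itga8- BLCs (SE 0.333, FDR 8.18e-07) and -4.51 in Sca-1+ MSCs (SE 0.311, FDR 2.44e-06).

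**Figure D3:**
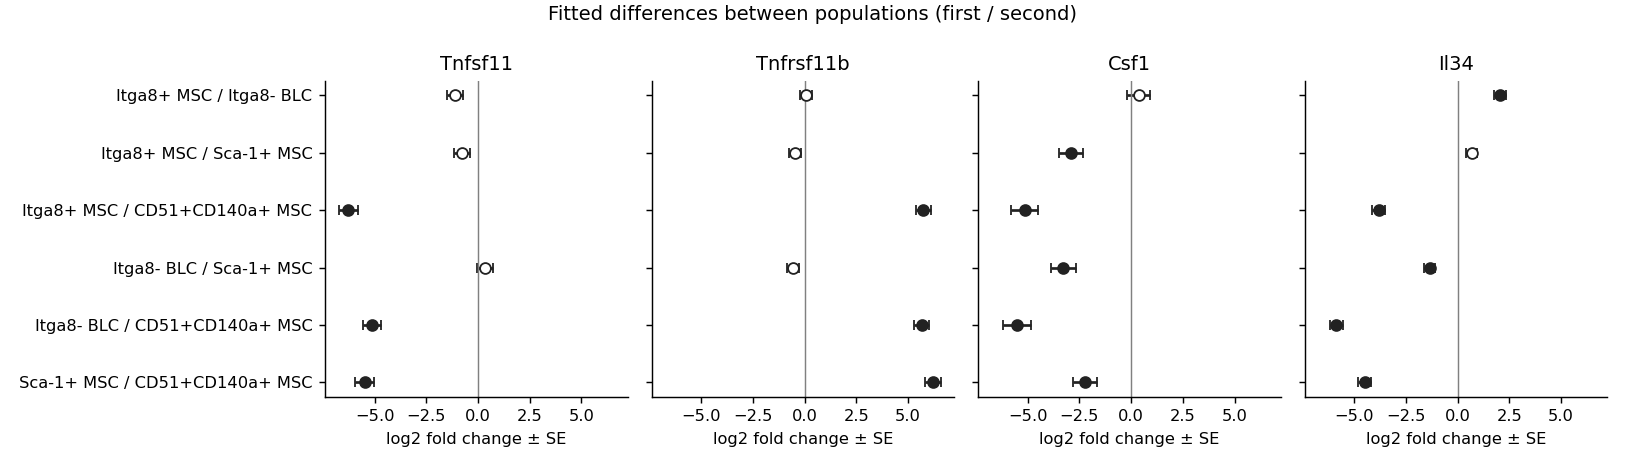
Fitted log2 fold changes ± SE (edgeR) of the 4 genes tested in the 6 comparisons of populations, the first named over the second. Filled points were called (FDR under 0.1 and fold change above 2) and open points were not, and all 3 comparisons with CD51+CD140a+ MSCs have filled points for every gene.

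The makeup of the CSF1 receptor ligands differed between the populations. IL-34 message took 43.3%, 81.3% and 45.3% of the summed Csf1 and Il34 TPM in the Itga8+ libraries. The share was 15.7%, 21.5% and 51.8% in Itga8- BLCs, 8.02%, 6.70% and 11.2% in Sca-1+ MSCs and 30.9%, 27.3% and 35.5% in CD51+CD140a+ MSCs. It was thus lowest in Sca-1+ MSCs and highest in Itga8+ MSCs, and the high values of 81.3% and 51.8% came from the libraries with low Csf1. The sum of both ligands was 2002 to 2854 TPM in CD51+CD140a+ MSCs, 298 to 424 TPM in Sca-1+ MSCs, 40.3 to 113 TPM in Itga8+ MSCs and 18.2 to 50.3 TPM in Itga8- BLCs.

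As a log2 ratio per length, Csf1 over Il34 was -0.49 ± 1.41 in Itga8+ MSCs, 1.39 ± 1.33 in Itga8- BLCs, 3.44 ± 0.409 in Sca-1+ MSCs, with 1.15 ± 0.276 for CD51+CD140a+ MSCs (SD, n = 3 each). Sca-1+ MSCs did not overlap with any other population, and their ratio was 15.2 times that of Itga8+ MSCs, 4.13 times that of Itga8- BLCs and 4.89 times that of CD51+CD140a+ MSCs (exact permutation p = 0.1 each, the smallest possible). The log2 difference of Itga8+ from Sca-1+ MSCs was -3.92, or -3.11 without Itga8+ replicate 2, and that of Itga8- BLCs was -2.05, or -1.30 without Itga8- replicate 3. Itga8+ MSCs lay below CD51+CD140a+ MSCs without overlap (-1.63, SE 0.832, exact p = 0.1), and without Itga8+ replicate 2 the difference was -0.82. Itga8- BLCs overlapped with Itga8+ MSCs (-1.88 for Itga8+ over Itga8-, SE 1.12, exact p = 0.3) and with CD51+CD140a+ MSCs (exact p = 0.8). The last of these differences was 0.25, turned to -0.27 without Itga8- replicate 1 and was 0.99 without Itga8- replicate 3.

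Other receptors of these ligands, and the proteins that hold or shed them, formed a list of 8 genes with Tnfsf10, a TNF family ligand, and all were tested. Csf1r, the receptor of M-CSF and IL-34, was at a like low level in every population, between 8.75 ± 1.26 TPM in Sca-1+ MSCs and 10.4 ± 8.10 TPM in Itga8- BLCs, and was not called in any comparison. Lgr4, a further receptor of RANKL, was higher in CD51+CD140a+ MSCs (31.6 ± 4.07 TPM) than in Itga8+ MSCs (9.22 ± 9.49 TPM; log2 -1.65 for Itga8+, SE 0.697, edgeR FDR 0.0926). Its values in the Itga8+ libraries ran from 2.75 to 31.0 CPM. Sdc1, a heparan sulfate proteoglycan, stood at 694 ± 70.6 TPM in CD51+CD140a+ MSCs and was called lower in all 3 others, whose means were at most 106 TPM. Ptprz1, a receptor of IL-34, was called higher in Itga8- BLCs (11.8 ± 11.6 TPM) than in each other population (0.462 to 1.19 TPM), with a wide spread. Adam10 and Adam17, proteases that release membrane-bound ligands, were higher in Sca-1+ MSCs (141 ± 4.87 and 85.4 ± 7.10 TPM) than in Itga8+ MSCs (27.2 ± 20.1 and 29.1 ± 20.3 TPM). Of this list, 3 genes were lower and 0 higher in Itga8+ than in CD51+CD140a+ MSCs, beside 14.3% and 21.2% of all genes, with a median log2 fold change of -1.04 against 0.18 over all genes. In Itga8- BLCs, 2 genes were lower and 1 higher than in CD51+CD140a+ MSCs, beside 14.9% and 20.4% of all genes (median -0.34 against 0.09). In Sca-1+ MSCs 1 was lower and 0 higher, beside 9.3% and 11.2% of all genes (median -0.073 against -0.0026).

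Secreted factors that promote osteoclast formation made a list of 15 genes, of which 14 were tested. Against CD51+CD140a+ MSCs, 7 genes were called higher and 2 lower in Itga8+ MSCs, where 21.2% and 14.3% of all genes were called (median log2 fold change 1.34 against 0.18 over all genes). In Itga8- BLCs 6 were higher and 2 lower, with 20.4% and 14.9% of all genes (median 1.14 against 0.09), and in Sca-1+ MSCs 4 were higher and 2 lower, with 11.2% and 9.3% of all genes (median 0.35 against -0.0026). The 7 genes higher in Itga8+ MSCs were Ptgs2, Pthlh, Il11, Osm, Tnf, Il1a and Il1b, of which the last 5 are named here after their values were seen, and the 6 in Itga8- BLCs were the same without Tnf. Osm, Tnf, Il1a and Il1b are cytokines that myeloid cells make. Myeloid markers summed to 6380 to 43869 TPM in the Itga8+ libraries and 12291 to 17231 TPM in the Itga8- libraries, against 1766 to 3033 TPM in CD51+CD140a+ MSCs, and their part in these counts was not tested. Il11 and Il1a reached at most 0.193 and 0.0273 CPM in CD51+CD140a+ MSCs and passed the filter only through libraries of other populations. Il1a passed it only through Itga8+ MSCs, with 1 to 106 counts per library there and 4 to 8 in Itga8- BLCs. The differences of Il11 and Il1a, which enter the numbers called and the medians, were thus partly fixed by the filter. Among the genes higher in CD51+CD140a+ MSCs were Ccl2, a chemokine for monocytes, at 1921 ± 391.7 TPM against 40.2 ± 23.6 TPM in Itga8+ MSCs (log2 -5.13 for Itga8+, SE 0.755, edgeR FDR 0.000384), and Vegfa at 575 ± 86.0 TPM against 89.5 ± 68.7 TPM (-2.56, SE 0.582, FDR 0.00656). Ccl2 was also high in Sca-1+ MSCs (725 ± 291 TPM), where the difference from CD51+CD140a+ MSCs was not called. Pthlh, the parathyroid hormone-related protein that raises RANKL in stroma, was the reverse, with 0.767 ± 1.33 TPM in CD51+CD140a+ MSCs and 71.6 ± 13.0, 45.6 ± 24.5 and 146 ± 19.1 TPM in Itga8+, Itga8- and Sca-1+ cells, all called. Ptgs2, the inducible enzyme of prostaglandin synthesis, stood at 232 ± 162 TPM in Itga8- BLCs and 177 ± 49.7 TPM in Sca-1+ MSCs, and was called lower in Itga8+ MSCs (28.0 ± 18.8 TPM) and in CD51+CD140a+ MSCs (12.6 ± 2.00 TPM). Il6 was at 95.9 ± 32.7 TPM in Sca-1+ MSCs and was called against Itga8- BLCs (29.1 ± 5.14 TPM). Ccl9 was called higher in CD51+CD140a+ MSCs (35.1 ± 7.52 TPM) than in Sca-1+ MSCs (5.23 ± 1.82 TPM). Between Itga8+ MSCs and Itga8- BLCs, 1 gene, Ptgs2, was called, beside 3.82% of all genes. It was higher in Itga8- BLCs, as were 2.16% of all genes.

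Of 14 secreted factors listed here as restraining osteoclast formation, 9 were tested. The list was made by name, and no effect of its genes on osteoclasts was measured in these libraries. Against CD51+CD140a+ MSCs, 4 were called higher and 1 lower in Itga8+ MSCs, beside 21.2% and 14.3% of all genes (median 1.26 against 0.18). The counts were 5 higher and 1 lower in Itga8- BLCs, beside 20.4% and 14.9% (median 1.53 against 0.09), and 3 higher and 1 lower in Sca-1+ MSCs, beside 11.2% and 9.3% (median 0.59 against -0.0026). The gene lower in each case was Sfrp1, a secreted Wnt antagonist, at 166 ± 10.98 TPM in CD51+CD140a+ MSCs, 39.4 ± 6.86 TPM in Sca-1+ MSCs, 15.3 ± 10.7 TPM in Itga8+ MSCs and 11.2 ± 6.34 TPM in Itga8- BLCs. Il33 was high in Sca-1+ MSCs (378 ± 100.2 TPM) and called lower in each other population (1.77 to 4.78 TPM). Sema3a was likewise called higher in Sca-1+ MSCs (13.4 ± 3.00 TPM) than in each other population. Bmp3, a bone morphogenetic protein family member made by osteogenic cells, was called higher in Itga8- BLCs (89.8 ± 27.7 TPM) than in each other population (1.33 to 2.73 TPM). Tgfb1 was called higher in Itga8- BLCs (35.4 ± 13.0 TPM) than in CD51+CD140a+ MSCs (16.5 ± 2.78 TPM), and Il18 was called higher in both bone-lining populations than there. Myeloid markers summed to 6380 to 43869 TPM in Itga8+ libraries and 12291 to 17231 TPM in Itga8- libraries, against 1766 to 3033 TPM there. Their part in these levels was not tested. Csf2 had 0 counts in CD51+CD140a+ MSCs, and Wnt16 had at most 0.226 CPM. Both passed the filter only through libraries of other populations, so their differences, which enter the medians, were partly fixed by the filter.

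A list of 22 genes through which hormones and cytokines set RANKL and OPG in stroma had 21 genes tested. It held receptors, intracellular factors and the secreted Sost. Against CD51+CD140a+ MSCs, 9 were lower and 3 higher in Itga8+ MSCs, beside 14.3% and 21.2% of all genes (median -0.70 against 0.18 over all genes). In Itga8- BLCs 7 were lower and 4 higher, beside 14.9% and 20.4% (median -0.56 against 0.09), and in Sca-1+ MSCs 6 were lower and 3 higher, beside 9.3% and 11.2% (median -0.41 against -0.0026). Pth1r, the receptor of parathyroid hormone, stood at 654 ± 152 TPM in Itga8- BLCs, the population with the most osteoblast markers, and was called lower in Itga8+ MSCs (269 ± 164 TPM), CD51+CD140a+ MSCs (296 ± 26.4 TPM) and Sca-1+ MSCs (97.4 ± 12.45 TPM). The receptors of the gp130 cytokines differed. Lifr was highest in CD51+CD140a+ MSCs (159.8 ± 32.0 TPM) and next in Itga8- BLCs (71.5 ± 18.7 TPM), and Itga8+ MSCs (12.6 ± 6.02 TPM) were called below both. Il11ra1 had its highest mean in Sca-1+ MSCs (234 ± 39.8 TPM), and was higher in Itga8+ MSCs (151 ± 5.43 TPM) than in Itga8- BLCs (36.9 ± 8.28 TPM; log2 1.88, SE 0.28, edgeR FDR 0.00337) and in CD51+CD140a+ MSCs (39.5 ± 5.49 TPM; 2.23, SE 0.29, FDR 0.000148). Il6st, their shared subunit, was highest in Sca-1+ MSCs (249 ± 38.9 TPM) and called above both bone-lining populations. Tnfrsf1a, the main TNF receptor, stood at 462 ± 7.19 TPM in CD51+CD140a+ MSCs and was called lower in all 3 others (146 to 174 TPM). Ctnnb1, the beta-catenin through which Wnt signals act, was called higher in Itga8- BLCs (294 ± 189 TPM) than in CD51+CD140a+ MSCs (165 ± 28.3 TPM) and Sca-1+ MSCs (173 ± 21.9 TPM).

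**Figure D4:**
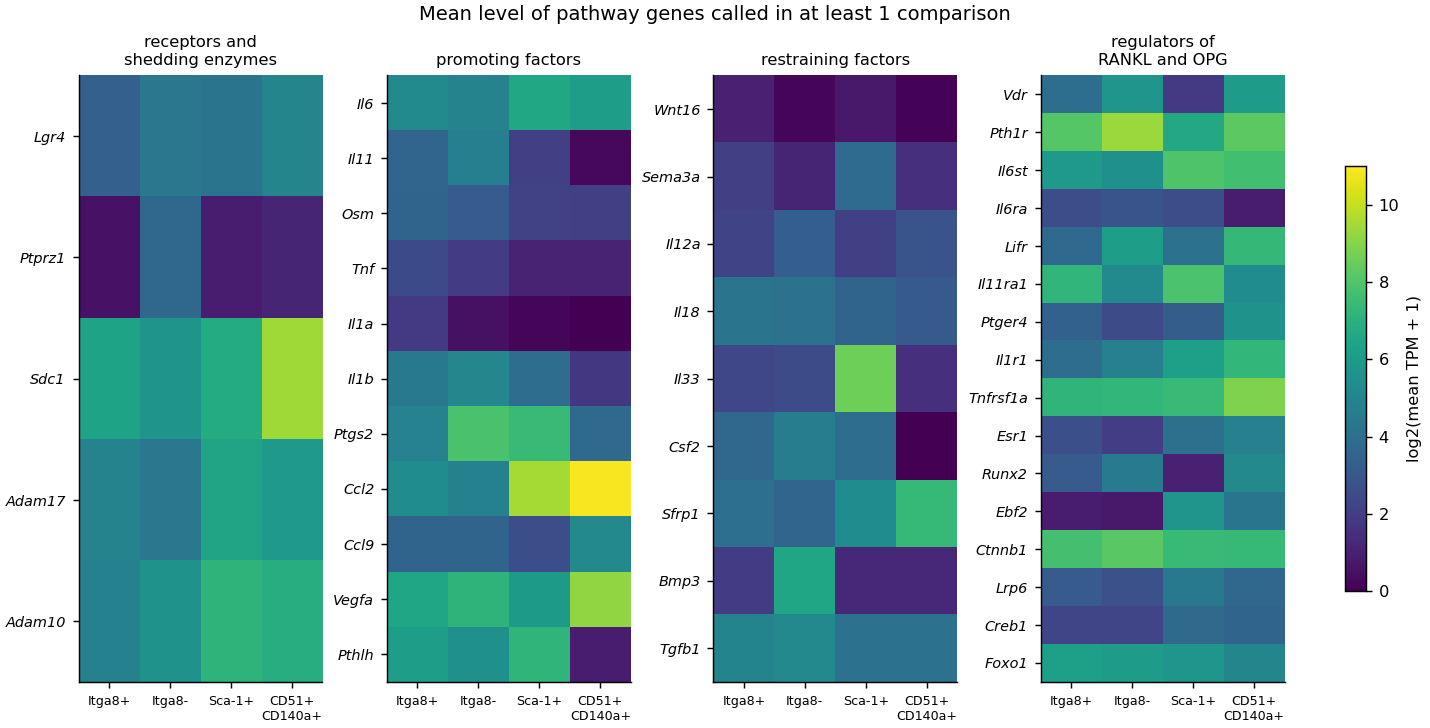
Mean level per population, as log2(mean TPM + 1), of genes called in at least 1 of the 6 comparisons, in the lists of receptors and shedding enzymes, promoting factors, restraining factors and regulators of RANKL and OPG. Brighter cells are higher levels, such as Ccl2 and Sdc1 in CD51+CD140a+ MSCs, Il33 in Sca-1+ MSCs and Pth1r in Itga8- BLCs.

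Osteoclast, myeloid and precursor genes were listed beside the near absence of Tnfrsf11a. Of 12 osteoclast markers 10 were tested. Against CD51+CD140a+ MSCs, 3 were higher and 1 lower in Itga8+ MSCs, beside 21.2% and 14.3% of all genes. The counts were 3 higher and 2 lower in Itga8- BLCs, beside 20.4% and 14.9%, and 4 higher and 1 lower in Sca-1+ MSCs, beside 11.2% and 9.3%. Calcr had no count in any library, and Oscar, Dcstamp and Ocstamp, which osteoclasts use to form and fuse, had means of at most 0.574 TPM in any population. The counts of markers higher than in CD51+CD140a+ MSCs include Dcstamp and Atp6v0d2, which had no count there and passed the filter only through libraries of other populations, so their difference was partly fixed by the filter. Some markers were higher in Sca-1+ MSCs. Itgb3 stood there at 37.5 ± 16.5 TPM and was called above each other population (3.31 to 4.72 TPM). Atp6v0d2, named after its values were seen, stood there at 10.3 ± 1.96 TPM and at no more than 0.459 TPM in the means of the others. Markers that other cells also make were abundant. Car2, a carbonic anhydrase, was at 205 to 585 TPM and Ctsk, a protease, at 362 to 814 TPM in the means of the populations. Acp5 was at 32.1 to 74.6 TPM, Clcn7 at no more than 78.0 TPM, and Tcirg1, a proton pump subunit, at 57.9 ± 4.88 TPM in CD51+CD140a+ MSCs, where it was called above the 3 others (13.5 to 19.9 TPM). Summed over the list, the markers lay at 953 to 2086 TPM, with the highest sum in Itga8+ replicate 2. Ptprc, which encodes the CD45 used to gate out blood cells, was at 1.903 to 3.05 TPM in the means of the populations. Granulocyte genes were abundant in spite of the gate, with Ngp at 1437 to 14073 TPM in the Itga8+ libraries and at 3957 ± 957 TPM in Itga8- BLCs. In Itga8+ MSCs 7 of 12 myeloid markers, and in Itga8- BLCs 8, were called higher than in CD51+CD140a+ MSCs, beside 21.2% and 20.4% of all genes, among them Mpo, Ngp, Lyz2, Elane, S100a9 and S100a8. Of 19 genes that act inside osteoclast precursors below RANK and the CSF1 receptor, 5 were called higher and 2 lower than in CD51+CD140a+ MSCs in each of Itga8+ MSCs and Itga8- BLCs, beside 21.2% and 14.3%, and 20.4% and 14.9%, of all genes. These shares lie near those of all genes. Nfatc1 (185 ± 131 TPM in Itga8+ MSCs against 54.3 ± 20.5 TPM), Plcg2, Tyrobp and Spi1 were among those higher, and Map3k14 was lower. Fcer1g was called higher in Itga8+ than in Sca-1+ MSCs. The part of myeloid RNA in these levels was not tested.

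**Figure D5:**
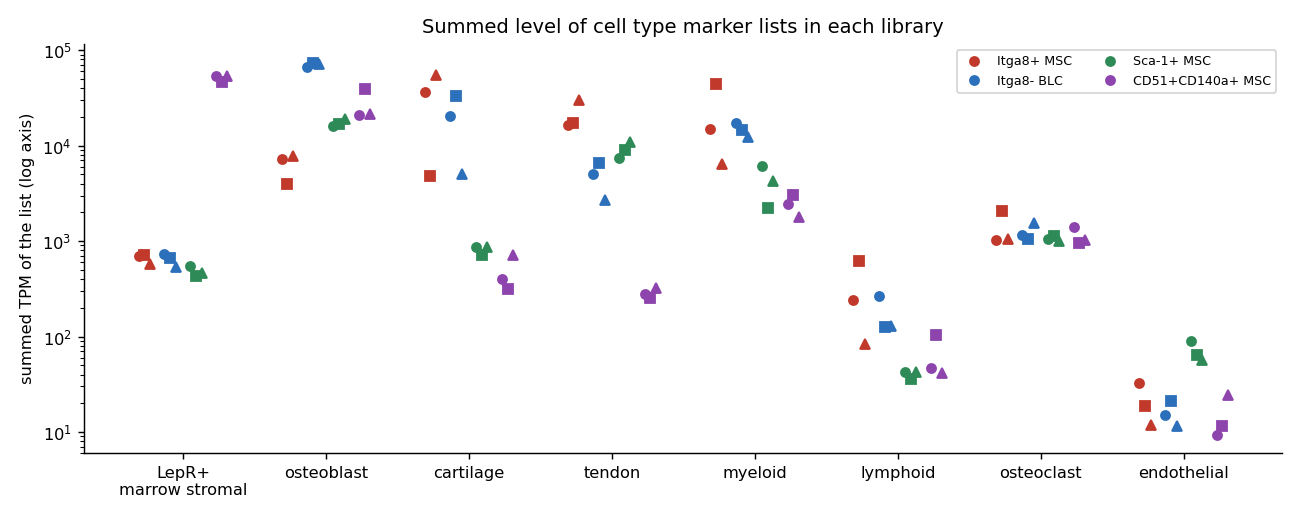
Summed TPM (log axis) of 8 lists of cell type markers in each library, coloured by population. Circles, squares and triangles are replicates 1, 2 and 3. The LepR+ marrow stromal sum separates the 3 CD51+CD140a+ libraries from the other 9, and the cartilage sum is low in Itga8+ replicate 2 and Itga8- replicate 3 within their populations.

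The members were compared with each other and with all genes by Pearson's r of log2(CPM + 0.5) over the 12 libraries. These values are descriptions, since all points share the division into 4 populations. Tnfsf11 had r = 0.882 with Il34, 0.767 with Csf1 and -0.969 with Tnfrsf11b, and Csf1 had r = 0.767 with Il34. Among 10559 genes that reached a mean of 10 CPM in a population, Adamdec1 (r = 0.986), Olfr289-ps1, Sh2d4b, Fam69c and Smco3 were most like Tnfsf11. Adamdec1, a secreted metalloprotease of the ADAM family, stood at 18.1 CPM in CD51+CD140a+ MSCs and at no more than 0.0618 CPM in the means of the others. Most like Tnfrsf11b were Anxa8, an annexin (r = 0.993), Gm44570, Tmbim1, Pcolce2, which aids procollagen processing, and Mmp3, a matrix protease. Anxa8 stood at 314, 227 and 587 CPM in Itga8+, Itga8- and Sca-1+ cells and 1.11 CPM in CD51+CD140a+ MSCs. Csf1 was followed most closely by Ncstn, a subunit of the gamma-secretase complex (r = 0.986), Slfn8, Cbx7, Pros1 and Sfrp1, whose levels also stepped from the bone-lining populations through Sca-1+ MSCs to CD51+CD140a+ MSCs. Il34 was followed by Fbln5, an elastic fibre protein (r = 0.989), Adcy2, Hmgcll1, Adh1 and Gm16559. Fbln5 was at 196, 42.9, 161 and 2872 CPM in Itga8+, Itga8-, Sca-1+ and CD51+CD140a+ cells, the order of Il34.

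Values that moved with the same contrast stand beside these results. The immediate early and stress genes, which respond to cell dissociation, summed to 21395 to 26680 TPM in CD51+CD140a+ MSCs and 6565 to 14512 TPM in the other libraries, and of 13 such genes 7, 6 and 6 were called higher in CD51+CD140a+ MSCs than in Itga8+ MSCs, Itga8- BLCs and Sca-1+ MSCs, and 1, 4 and 2 were called lower. Of all genes 14.3%, 14.9% and 9.3% were called higher there and 21.2%, 20.4% and 11.2% lower. The part of these 13 genes in the levels of Tnfsf11, Csf1, Il34 and Tnfrsf11b was not tested. All 11 LepR+ marrow stromal markers were called higher in CD51+CD140a+ MSCs than in both Itga8+ and Sca-1+ MSCs, and 10 of 11 were called higher than in Itga8- BLCs.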

How the data were processed

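RNA was isolated by the authors with NucleoSpin RNA Plus XS from 2000 cells of each population, copied with the SMART-Seq v4 kit, made into Nextera XT libraries and sequenced on a NextSeq 500. The authors deposited 1 table of counts for each library, whole numbers of reads on Ensembl genes without normalization. The study's methods name TopHat and Bowtie2 with the mm10 genome and iDEP, whereas the submitters' processing notes name Trimmomatic 0.38, HISAT2 2.1.0, SAMtools 1.9 and featureCounts 1.6.3. Which aligner made the deposited counts, the annotation release and the use of strand are not given in the sources used here. The kit amplifies cDNA without molecular identifiers, so copies of a molecule cannot be told apart.

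Populations came from the sample labels. Of the 49585 identifiers, 49326 are in GENCODE M21 (GRCm38), which gave names, positions and exon lengths, and the 259 others held at most 0.0163% of a library's counts. All 12 libraries were fitted in 1 edgeR 4.0.16 quasi-likelihood model (R 4.3.3, TMM scaling, two-sided) after leaving out genes that reached 0.5 CPM, by library totals without TMM, in no library, and a call needed a fold change above 2 together with an FDR under 0.1, as in the study. Single ratios were compared with two-sided exact permutation tests (scipy 1.17.1). TPM used the union of exon lengths, and tables and figures were made with pandas 2.3.3, numpy 2.4.6 and matplotlib 3.10.9 in Python 3.11.15. The fit was tested on simulated data. Replicates of a population correlated at r = 0.861 to 0.986, and none agreed within sampling noise. Promoter sequences are those of RefSeq, with entries for 3 of the 5 genes.

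The genes and lists were chosen with earlier results of these data known. The rule for naming took all 5 genes, the 6 genes at most of highest mean CPM among those called in each other list, Csf1r, Lgr4, Acp5, Ctsk, Calcr, Ocstamp, Dcstamp, Oscar and Ptprc, and the 5 genes most like each tested member. Genes of the lists used only to mark cell types or stress are mostly given by their sums. Lists are described by counts and medians, with no set test. Alternatives were DESeq2 1.42.0, limma-trend (limma 3.58.1), RLE factors, library totals alone, other filters, a fit of only the populations compared, the replicate block, thinned counts, an FDR under 0.05, 3 added to each count of a ratio, the longest transcript for TPM and each library left out in turn. Leaving out Itga8+ replicate 2 with Itga8- replicate 3 was added after seeing the data.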

Additional observations from a re-analysis of the deposited data

How the results depend on the processing

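The alternatives were read for the 5 genes, their ratios and the counts over all genes, and the calls of the other listed genes were not checked under them. The calls of Tnfsf11, Tnfrsf11b, Csf1 and Il34 kept their direction and their side of the thresholds under every alternative run except the following. Without Itga8- replicate 1, the members called between Itga8+ MSCs and Itga8- BLCs were 2, since Tnfsf11 passed at -1.42 (edgeR FDR 0.0836), and the count lay between 1 and 2 over the libraries left out in turn. Values that turned their sign were small and not called. The Tnfrsf11b difference between Itga8+ MSCs and Itga8- BLCs ranged from -0.031 to 0.31 over all alternatives (-0.031 to 0.24 with libraries left out in turn) and was negative without Itga8+ replicate 3 (-0.031) and without Itga8- replicate 2 (-0.025). The log2 Tnfsf11 to Tnfrsf11b ratio of Itga8+ over Sca-1+ MSCs ranged from -0.75 to 0.060 with libraries left out in turn, and the log2 Csf1 to Il34 ratio of Itga8- BLCs over CD51+CD140a+ MSCs ranged from -0.27 to 0.99. The cause of these changes was not tested. The replicate numbers did not pair the libraries. Same-numbered libraries of different populations deviated together with r over 0.1 in 5 of 18 pairs, with a range from -0.70 to 0.30. Libraries of different numbers correlated at up to 0.74 (Itga8+ replicate 3 with Itga8- replicate 2) and 0.71 (Itga8+ replicate 2 with Itga8- replicate 3). The replicate block changed no call of a member (Il34 in Itga8+ MSCs over Itga8- BLCs 2.07, Csf1 in Sca-1+ over CD51+CD140a+ MSCs -2.24), while the genes called between Itga8+ MSCs and Itga8- BLCs went from 310 higher and 402 lower to 188 and 245. They were 107 and 169 in a fit of only these populations, 597 and 606 with DESeq2, 197 and 236 without Itga8- replicate 3, and 203 and 361 without Itga8- replicate 1. Between Itga8+ and Sca-1+ MSCs, 2397 higher and 1658 lower became 1514 and 1128, 1358 and 1028, and 1376 and 1116 without Sca-1+ replicates 1, 2 and 3, 1588 and 1314 in a fit of only these populations, and 3110 and 2768 without Itga8+ replicate 3. Library totals alone shifted the median of all genes' log2 fold changes from 0.09 to -0.24 between Itga8- BLCs and CD51+CD140a+ MSCs, from 0.12 to -0.068 between Itga8- BLCs and Sca-1+ MSCs, from 0.08 to 0.34 between Itga8+ MSCs and Itga8- BLCs and from -0.0026 to -0.15 between Sca-1+ and CD51+CD140a+ MSCs. With them 495 genes were higher and 313 lower between Itga8+ MSCs and Itga8- BLCs, 2934 and 4090 between Itga8- BLCs and CD51+CD140a+ MSCs, and 2171 and 2929 between Itga8- BLCs and Sca-1+ MSCs, against 310 and 402, 3808 and 2770, and 2706 and 2224 with TMM scaling. With no filter Tnfrsf11a was tested and gave FDRs between 0.219 and 1. The length of the longest transcript in place of the exon union moved the mean TPM of Tnfsf11 in Sca-1+ MSCs to 4.02, of Tnfrsf11b to 216 in Itga8- BLCs and 413 in Sca-1+ MSCs, and of Il34 to 7.22, 25.0 and 615 in the Itga8-, Sca-1+ and CD51+CD140a+ populations.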

Other observations

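The families to which RANKL and its receptors belong were described beside them. Of 18 TNF ligand genes, 15 were tested, Tnfsf11 included, and 6 were lower and 3 higher in Itga8+ than in CD51+CD140a+ MSCs, where 14.3% and 21.2% of all genes were called. Eda, the ectodysplasin ligand, shared the direction of Tnfsf11, at 35.9 ± 13.1 TPM in CD51+CD140a+ MSCs against 0.999 to 3.76 TPM in the other populations, all called. Tnfsf9 ran the other way, with 3.57 ± 3.603 TPM in CD51+CD140a+ MSCs against 73.8 ± 47.1 TPM in Itga8+ MSCs, 30.9 ± 9.56 TPM in Itga8- BLCs and 126 ± 33.4 TPM in Sca-1+ MSCs, all called. Tnfsf13b was called higher in CD51+CD140a+ MSCs (3.44 ± 1.52 TPM) than in both bone-lining populations (0.668 and 0.804 TPM), and Tnf was called higher in Itga8+ MSCs (4.51 ± 0.845 TPM) than in CD51+CD140a+ MSCs (1.16 ± 0.721 TPM). Tnfsf8, at 2.58 ± 0.873 TPM in Sca-1+ MSCs, had means of at most 0.087 TPM in the others and passed the filter only through the Sca-1+ libraries, so that its difference was partly fixed by the filter. Per length, Tnfsf11 at 252 ± 60.0 TPM had the highest mean of these ligands in CD51+CD140a+ MSCs.

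Of 28 TNF receptor genes, 25 were tested, Tnfrsf11b included, and against CD51+CD140a+ MSCs 12 were called higher and 4 lower in each of Itga8+ MSCs and Itga8- BLCs, and 7 higher and 6 lower in Sca-1+ MSCs. Of all genes 21.2%, 20.4% and 11.2% were called higher in these populations and 14.3%, 14.9% and 9.3% lower. In Itga8+ MSCs 7 of 12 myeloid markers, in Itga8- BLCs 8, and in both 3 of 4 lymphoid markers tested were called higher than in CD51+CD140a+ MSCs. The part of blood cell RNA in these counts was not tested. Tnfrsf12a, the receptor of TWEAK, followed Tnfrsf11b in being high in the populations from bone fragments, with 689 ± 86.2, 854 ± 343 and 219 ± 62.4 TPM in Itga8+, Itga8- and Sca-1+ cells against 54.2 ± 23.7 TPM in CD51+CD140a+ MSCs. Tnfrsf19 was called higher in CD51+CD140a+ MSCs (612 ± 74.1 TPM) than in Itga8+ MSCs (14.4 ± 17.2 TPM), Itga8- BLCs (27.6 ± 15.7 TPM) and Sca-1+ MSCs (2.51 ± 1.20 TPM). Tnfrsf1a, Tnfrsf21, Tnfrsf1b and Ltbr also had their highest means in CD51+CD140a+ MSCs, at 462, 248, 115 and 131 TPM, and all 4 were called above Sca-1+ MSCs. The ligand of Tnfrsf12a, Tnfsf12, was called higher in CD51+CD140a+ MSCs (12.7 ± 1.17 TPM) than in both bone-lining populations (2.95 ± 2.20 and 1.04 ± 0.282 TPM).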
